A study of Mus musculus with 10 samples.

Results

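The 44 genes described here drive or restrain the division cycle, from the D cyclins that start it to the kinetochore and cytokinesis proteins that end it. They were chosen as a list of symbols from knowledge of the cycle, with earlier results of these data known, and all 44 were found among the 57185 genes with counts and passed the filter on low counts. In a dividing cell, D cyclins with CDK4 or CDK6 and then E cyclins with CDK2 open the way to DNA replication, CDK inhibitors hold these kinases back, and the B cyclins with CDK1 carry the cell into mitosis. Most cardiomyocytes of the adult mouse heart no longer divide, so transcripts of the late cycle are scarce in ventricle, and the endothelial cells, fibroblasts and immune cells of the tissue divide at low rates.

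Bulk RNA sequencing compared 5 MLPKO mice with 5 cRADΔ/Δ-MLPKO mice. MLPKO mice lack muscle LIM protein, encoded by *Csrp3*, and develop dilated cardiomyopathy. Both groups carried floxed alleles of *Rrad*, which encodes the calcium channel regulator RAD, and every mouse received tamoxifen once at 10 weeks of age (100 mg/kg, intraperitoneal). The MYH6-MerCreMer recombinase was present in the cRADΔ/Δ-MLPKO mice and absent from the MLPKO mice, so these groups also differ in the recombinase itself. Hearts were taken 1 month after tamoxifen by the study's text, which names the mice as male. The labels give 16 weeks of age, later than 1 month after tamoxifen at 10 weeks, so the sources do not match in age. The MYH6 promoter drives the recombinase in cardiomyocytes, while RNA came from all cells of the apical ventricle, so the comparison cannot place a change in one cell type. In such tissue RNA, fewer cells of a type and less RNA per cell cannot be told apart.

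Each mouse gave 1 library with 33457406 to 49965101 counts. *Rrad* was counted at 223 ± 66.1 CPM (counts scaled to library size; SD, n = 5) in MLPKO and 171 ± 29.9 CPM (SD, n = 5) in cRADΔ/Δ-MLPKO, and the groups overlapped (log2 fold change −0.38, edgeR adjusted p = 0.29). This count covers the whole gene and all cells of the tissue, so it does not check the deletion in cardiomyocytes. *Csrp3* counts were present in all 10 mice, from 1009 to 3261 CPM in MLPKO and from 691 to 1177 CPM in cRADΔ/Δ-MLPKO. The groups overlapped, with a fitted difference of −1.08 on the log2 scale that passed with DESeq2 (adjusted p = 0.0362) and not with edgeR (adjusted p = 0.0667). Counts per gene do not show which exons of *Csrp3* were read, so they do not check the knockout. The cardiomyocyte markers were counted in both groups, with a summed level of 52616 to 61257 CPM in MLPKO and a lower one, with no overlap, of 39212 to 51888 CPM in cRADΔ/Δ-MLPKO.

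Of the 44 cell cycle genes, *Cenpf* was higher and *Cenpa* was lower in cRADΔ/Δ-MLPKO, with an adjusted p under the threshold of 0.05 (edgeR, adjusted over 13452 genes). These 2 genes are 4.55% of the members, and 2.74% of all genes tested were called. Both encode proteins of the centromere and kinetochore, and their changes were opposite. The other 42 genes did not pass the test. With DESeq2, *Cenpf*, *Cdk6* and *Cdkn2c* were higher (3.81% of all genes were) and *Cenpa* was lower (5.84% of all genes were). Fitted log2 fold changes were above 0 in 38 of the 44 genes, with a median of 0.308, against 52.1% of all genes tested and a median of 0.011. An unadjusted p under 0.05 was reached by 11 genes on the higher side and 1 on the lower, and among all genes by 10.1% on the higher and 11.5% on the lower side. The values of *Cenpf* and *Rrm1* in cRADΔ/Δ-MLPKO lay above those of every MLPKO mouse, and those of *Cenpa* lay below, while 2.64% of all genes were apart on the higher side and 3.97% on the lower.

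**Figure D1:**
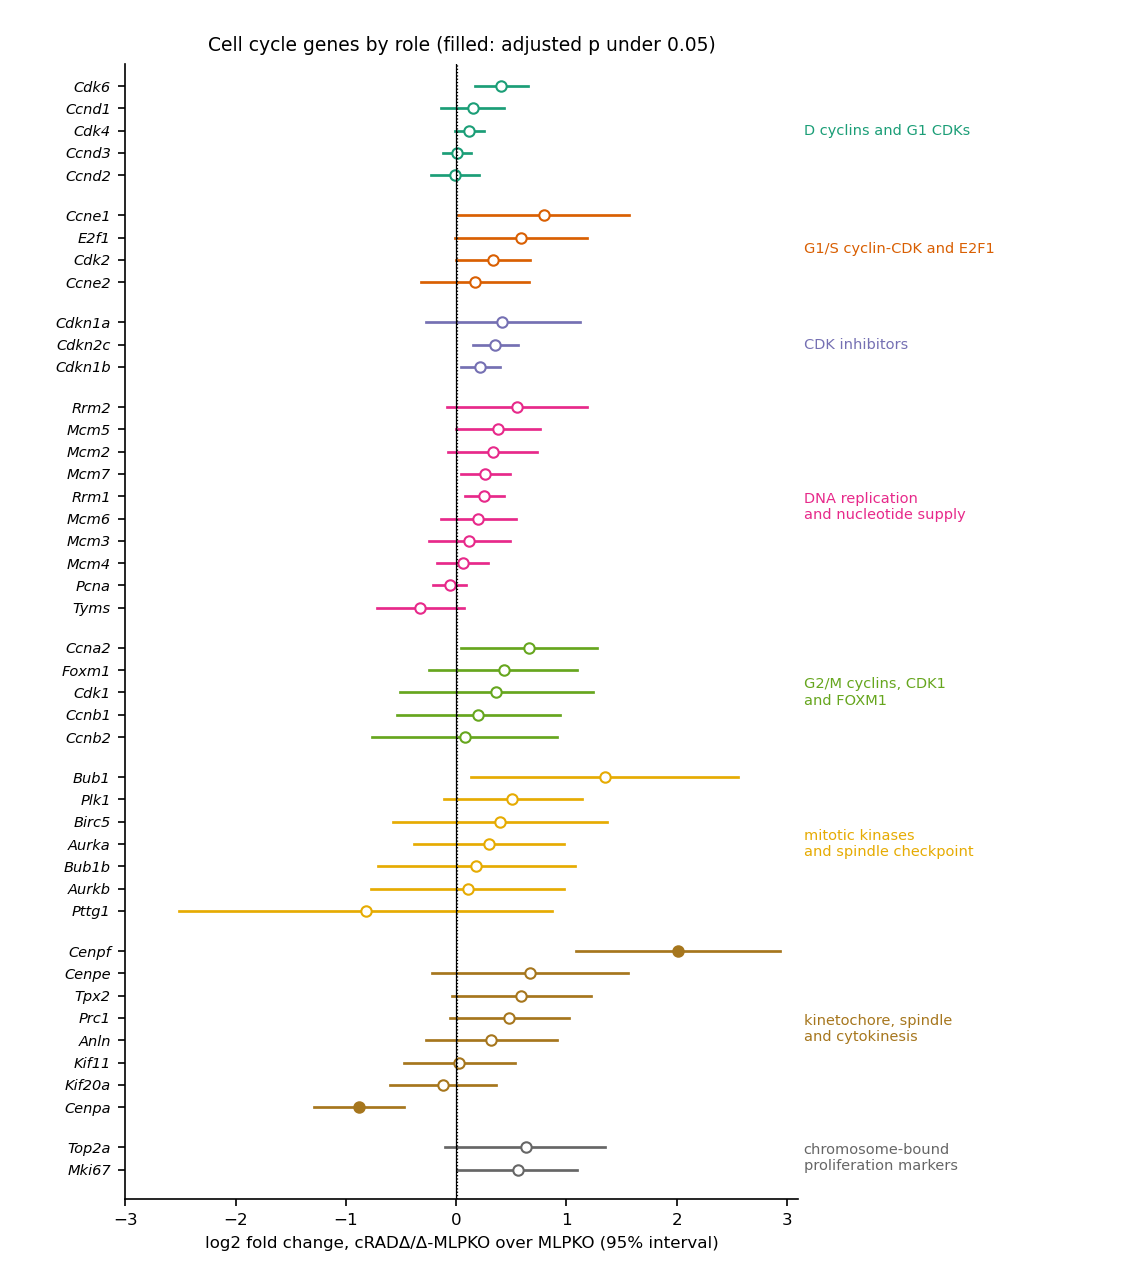
The log2 fold change of cRADΔ/Δ-MLPKO over MLPKO (x axis) is drawn for each of the 44 genes with its 95% confidence interval, grouped by role. Filled points passed the test (*Cenpf* at 2.01 and *Cenpa* at −0.88), and the dotted line is the median of all genes tested, 0.011.

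*Cenpf* (chromosome 1, 189372752 to 189420315, minus strand, GRCm39) encodes a large protein of the kinetochore and nuclear envelope that accumulates from S phase to mitosis. Its level was 1.92, 1.71, 3.16, 4.56 and 3.79 CPM in MLPKO mice 1 to 5. In cRADΔ/Δ-MLPKO mice 1 to 5 it was 4.85, 10.2, 6.75, 15.5 and 24.0 CPM. All cRADΔ/Δ-MLPKO mice were above all MLPKO mice, and they differed among themselves more than the MLPKO mice did. The means were 3.03 ± 1.22 and 12.3 ± 7.72 CPM (SD, n = 5), from 54 to 172 and from 162 to 1062 raw counts. The log2 fold change was 2.01 (standard error 0.42, 95% confidence interval 1.09 to 2.94, edgeR adjusted p = 0.0324). DESeq2 called it too (adjusted p = 0.00145), whereas limma-voom (adjusted p = 0.0629) and edgeR with robust dispersion (adjusted p = 0.054) did not. With 1 mouse left out, the log2 fold change stayed between 1.63 and 2.22, but the call was lost without MLPKO mouse 1 (edgeR adjusted p = 0.0788), 3 (0.0562) or 5 (0.0746) and without cRADΔ/Δ-MLPKO mouse 2 (0.0564), 4 (0.0733) or 5 (0.074).

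*Cenpa* (chromosome 5, 30824121 to 30842921, plus strand, GRCm39) encodes the histone H3 variant that marks the centromere, on which the kinetochore is built. MLPKO mice 1 to 5 had 40.5, 57.1, 32.1, 33.7 and 57.1 CPM. The cRADΔ/Δ-MLPKO mice had 23.5, 29.7, 17.2, 23.3 and 25.7 CPM. Every cRADΔ/Δ-MLPKO mouse was below every MLPKO mouse, and the mean fell from 44.1 ± 12.2 to 23.9 ± 4.57 CPM (SD, n = 5). The log2 fold change was −0.88 (standard error 0.19, 95% confidence interval −1.29 to −0.47, edgeR adjusted p = 0.0334), and DESeq2 gave an adjusted p of 0.000243. With 1 mouse left out it lay between −0.97 and −0.77, and the call was lost without MLPKO mouse 1 (edgeR adjusted p = 0.067) or 5 (0.082) and without cRADΔ/Δ-MLPKO mouse 1 (0.0613), 3 (0.0754), 4 (0.0797) or 5 (0.0775). No other annotated exon overlaps those of *Cenpa*.

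Many genes of mitosis share promoter elements, the CHR (cell cycle genes homology region) and the NF-Y box, through which they are held off in resting cells and switched on late in the cycle, while E2F sites are found at genes of DNA replication. The promoters of the pair of members with the smallest p in each direction are shown for these elements, from 250 bases before to 30 bases from the start site on, in the RefSeq windows of GRCm38.p6, an older build than that of the counts. Capitals mark every match on either strand to the CHR (TTTGAA or TTCGAA), the NF-Y box (CCAAT) or the E2F core (TTCCCGC or TTGGCGC). The windows are chr1:189688057-189688336 for *Cenpf*, chr4:109666727-109667006 for *Cdkn2c* and chr5:30073596-30073875 for *Tyms*, all on the minus strand, and chr5:30666636-30666915 on the plus strand for *Cenpa*.
Cenpf: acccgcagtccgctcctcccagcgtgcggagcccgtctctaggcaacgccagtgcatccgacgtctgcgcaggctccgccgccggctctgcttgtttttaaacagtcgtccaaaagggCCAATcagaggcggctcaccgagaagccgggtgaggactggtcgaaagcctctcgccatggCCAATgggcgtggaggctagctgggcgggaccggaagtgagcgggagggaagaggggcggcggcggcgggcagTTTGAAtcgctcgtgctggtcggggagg
Cenpa: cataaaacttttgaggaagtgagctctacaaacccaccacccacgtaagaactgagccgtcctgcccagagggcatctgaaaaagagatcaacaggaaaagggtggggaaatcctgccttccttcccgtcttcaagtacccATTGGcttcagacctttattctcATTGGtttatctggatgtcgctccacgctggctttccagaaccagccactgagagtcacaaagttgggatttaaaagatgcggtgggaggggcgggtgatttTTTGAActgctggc
Cdkn2c: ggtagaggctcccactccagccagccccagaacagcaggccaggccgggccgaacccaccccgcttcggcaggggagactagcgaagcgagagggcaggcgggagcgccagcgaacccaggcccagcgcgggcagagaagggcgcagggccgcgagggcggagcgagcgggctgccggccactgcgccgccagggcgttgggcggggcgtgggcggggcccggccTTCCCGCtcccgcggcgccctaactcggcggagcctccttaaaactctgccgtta
Tyms: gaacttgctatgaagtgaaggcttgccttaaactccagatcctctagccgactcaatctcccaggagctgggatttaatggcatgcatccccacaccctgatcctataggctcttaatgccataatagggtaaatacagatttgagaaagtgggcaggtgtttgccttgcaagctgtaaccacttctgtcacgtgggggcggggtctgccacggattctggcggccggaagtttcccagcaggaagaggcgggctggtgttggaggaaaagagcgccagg

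The promoters of *Cenpf* and *Cenpa*, whose transcripts moved in opposite directions, held the same elements. With the start site as base 0, *Cenpf* has NF-Y boxes at −132 to −128 and −71 to −67 and a CHR at 2 to 7. *Cenpa* has NF-Y boxes on the other strand at −109 to −105 and −86 to −82 and a CHR at 16 to 21. The window of *Cdkn2c* has 1 E2F core, at −25 to −19, and that of *Tyms* holds no match. Over the 35 members with a window, a CHR was found in 64.7% of the 17 mitotic genes and in 18.6% of all 27025 windows of this length. Both a CHR and an NF-Y box were present in 58.8% of the mitotic genes and in 7.07% of all windows. The NF-Y box, with or without a CHR, was not particular to the mitotic genes. It was found in 82.4% of their windows and in 88.9% of those of the DNA replication genes, against 36.6% of all. The E2F core was found in 55.6% of the 9 windows of the DNA replication genes, against 6.45% of all. None of the 9 windows of the G1 cyclins, their kinases, E2F1 and the inhibitors held a CHR. These are matches of letters, and no binding was measured.

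Apart from *Cenpf* and *Cenpa*, the kinetochore, spindle and cytokinesis genes had log2 fold changes between −0.12 and 0.67, and none passed the test. *Cenpe*, a motor protein of the kinetochore, ranged from 0.416 to 1.07 CPM in MLPKO and from 0.407 to 1.91 CPM in cRADΔ/Δ-MLPKO (log2 fold change 0.67, edgeR adjusted p = 0.369). *Tpx2*, which nucleates spindle microtubules, ranged from 0.80 to 1.90 and from 1.27 to 2.95 CPM (log2 fold change 0.59). The midzone bundler *Prc1* ranged from 0.634 to 1.36 and from 1.09 to 2.02 CPM (log2 fold change 0.48), and the cytokinesis scaffold *Anln* from 1.20 to 2.21 and from 1.02 to 2.84 CPM (log2 fold change 0.32). The groups overlapped in each of these genes. The spindle motor *Kif11* was nearest to no difference, with 2.03 ± 0.520 CPM (SD, n = 5) in MLPKO, 2.08 ± 0.558 CPM (SD, n = 5) in cRADΔ/Δ-MLPKO and a 95% interval of the log2 fold change from −0.47 to 0.53. For the cytokinesis motor *Kif20a* the means were 1.65 ± 0.474 and 1.52 ± 0.231 CPM (SD, n = 5), but 54.8% of its exon bases are shared with *Cdc23* on the opposite strand, so its counts are uncertain.

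*Mki67* and *Top2a* encode the Ki-67 antigen and topoisomerase IIα, which coat or untangle chromosomes and are the usual markers of proliferating cells. *Mki67* was at 4.09, 4.09, 6.75, 3.25 and 4.19 CPM in MLPKO mice 1 to 5. In cRADΔ/Δ-MLPKO mice 1 to 5 it was at 6.22, 9.32, 8.47, 4.99 and 4.03 CPM. MLPKO mouse 3 stood above the other MLPKO mice, and cRADΔ/Δ-MLPKO mouse 5 lay among them. The means were 4.48 ± 1.33 and 6.61 ± 2.25 CPM (SD, n = 5; log2 fold change 0.56, standard error 0.25, edgeR adjusted p = 0.226). *Top2a* was at 2.31, 2.03, 4.46, 2.03 and 2.03 CPM in MLPKO and at 2.39, 6.01, 5.82, 2.27 and 3.44 CPM in cRADΔ/Δ-MLPKO. Again MLPKO mouse 3 was high, and cRADΔ/Δ-MLPKO mice 2 and 3 were the highest of all (log2 fold change 0.63, standard error 0.33, edgeR adjusted p = 0.302).

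The G2/M cyclins, their kinase CDK1 and the transcription factor FOXM1, which switches on mitotic genes, all had fitted log2 fold changes above 0, from 0.08 to 0.66, and none passed the test. *Ccna2*, the A cyclin of S phase and G2, was at 0.624, 0.634, 1.46, 0.480 and 0.794 CPM in MLPKO. It was at 1.20, 1.13, 1.42, 1.25 and 1.38 CPM in cRADΔ/Δ-MLPKO. The cRADΔ/Δ-MLPKO mice were close together and overlapped with MLPKO mouse 3 alone. Its log2 fold change was 0.66 (edgeR adjusted p = 0.207, standard error 0.28) and became 1.01 without MLPKO mouse 3 (edgeR adjusted p = 0.0445). *Exosc9*, on the opposite strand, shares 17.5% of the exon bases of *Ccna2*. *Ccnb1*, the main B cyclin, was at 0.324, 0.634, 0.671, 0.267 and 0.441 CPM in MLPKO and at 0.598, 0.784, 0.601, 0.356 and 0.362 CPM in cRADΔ/Δ-MLPKO. *Cdk1* was at 0.277, 0.317, 1.22, 0.853 and 0.794 CPM and at 0.598, 1.39, 0.983, 0.668 and 0.859 CPM in the same order. These groups overlapped over most of their ranges (log2 fold changes 0.20 and 0.36, edgeR adjusted p = 0.783 and 0.653). *Ccnb1* rested on 10 to 36 raw counts per mouse and *Cdk1* on 10 to 64. *Ccnb2* ranged from 0.427 to 1.14 and from 0.289 to 1.15 CPM, and *Foxm1* from 0.373 to 1.36 and from 0.846 to 1.5 CPM.

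Among the mitotic kinases and spindle checkpoint genes, *Bub1*, a checkpoint kinase, had the largest fitted difference. Its raw counts were 14, 6, 14, 0 and 10 in MLPKO and 28, 22, 22, 26 and 8 in cRADΔ/Δ-MLPKO. All cRADΔ/Δ-MLPKO mice but mouse 5 were above all MLPKO mice. The levels were 0.202 ± 0.124 and 0.536 ± 0.238 CPM (SD, n = 5; log2 fold change 1.35, standard error 0.56, edgeR adjusted p = 0.187). At so few counts the 95% interval ran from 0.13 to 2.56. Its partner *Bub1b* had 0.816 to 1.42 CPM in MLPKO, and in cRADΔ/Δ-MLPKO mouse 3 had 3.06 CPM against 0.668 to 0.893 CPM in the other mice. Its log2 fold change of 0.18 became −0.45 without that mouse. *Plk1*, *Aurka* and *Aurkb*, kinases of mitotic entry, the spindle and the chromosomes, had log2 fold changes of 0.51, 0.30 and 0.11. *Birc5*, a subunit of the Aurora B complex, had one of 0.40 on 6 to 34 raw counts per mouse. In *Aurka*, 25.2% of the exon bases are shared with *Fam210b* on the opposite strand. None of these genes passed the test, and their groups overlapped.

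*Pttg1*, which encodes securin, the inhibitor of separase, followed a pattern of its own. It was at 28.5, 28.7, 2.33, 26.8 and 51.4 CPM in MLPKO and at 1.44, 24.8, 2.51, 27.0 and 21.5 CPM in cRADΔ/Δ-MLPKO. MLPKO mouse 3 and cRADΔ/Δ-MLPKO mice 1 and 3 were far below the other mice, with 48 to 118 raw counts where the others had 907 to 2328. The low mice were found in both groups, and the log2 fold change of −0.82 had a 95% interval from −2.51 to 0.87 (edgeR adjusted p = 0.584).

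**Figure D2:**
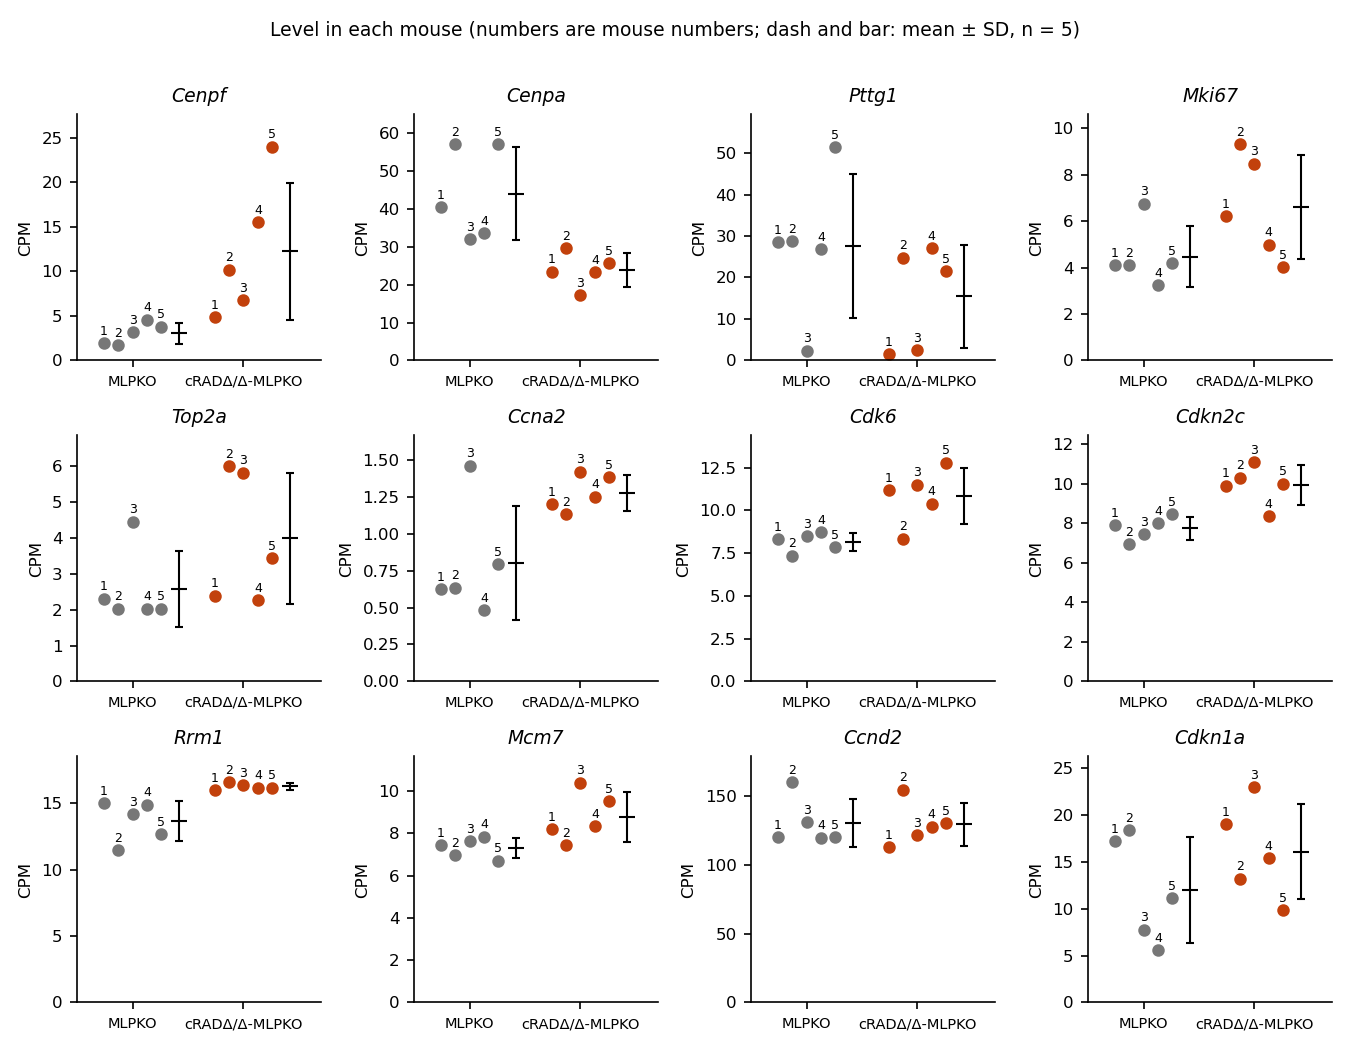
The level in CPM (y axis, from 0) of 12 cell cycle genes is drawn for each mouse by genotype, with the mouse number above each point and the mean ± SD (n = 5) beside it. *Cenpf* and *Cenpa* are apart between the genotypes in opposite directions, *Pttg1* is low in 3 mice of both genotypes, and *Rrm1* is apart by a small step.

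The mice differed in the whole mitotic group. MLPKO mouse 3 was the highest MLPKO mouse for 15 of the 22 mitotic genes, and cRADΔ/Δ-MLPKO mouse 3 was the highest of its group for 12. MLPKO mouse 4 was the lowest for 11. The sum of the 22 genes was 97.1 ± 24.4 CPM in MLPKO and 81.6 ± 18.5 CPM in cRADΔ/Δ-MLPKO (SD, n = 5), but *Cenpa* and *Pttg1* made up 37.6% and 21.7% of its counts and *Cenpf* 8.82%. Without these 3 genes, which were set apart after their values were seen, the sum was 20.6, 19.6, 33.2, 17.3 and 21.4 CPM in MLPKO mice 1 to 5. It was 27.0, 36.7, 42.1, 21.2 and 23.0 CPM in cRADΔ/Δ-MLPKO mice 1 to 5. Leaving out these 3 genes together thus turned the direction of the sum, and the smaller sum overlapped between the groups. Of the 3, *Cenpa* and *Pttg1* had lower means in cRADΔ/Δ-MLPKO, whereas *Cenpf* had a higher one. *Cenpf* did not follow the order of the other mitotic genes: it was highest in cRADΔ/Δ-MLPKO mice 5 and 4, which had the lowest sums of the other 19 genes in that group.

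**Figure D3:**
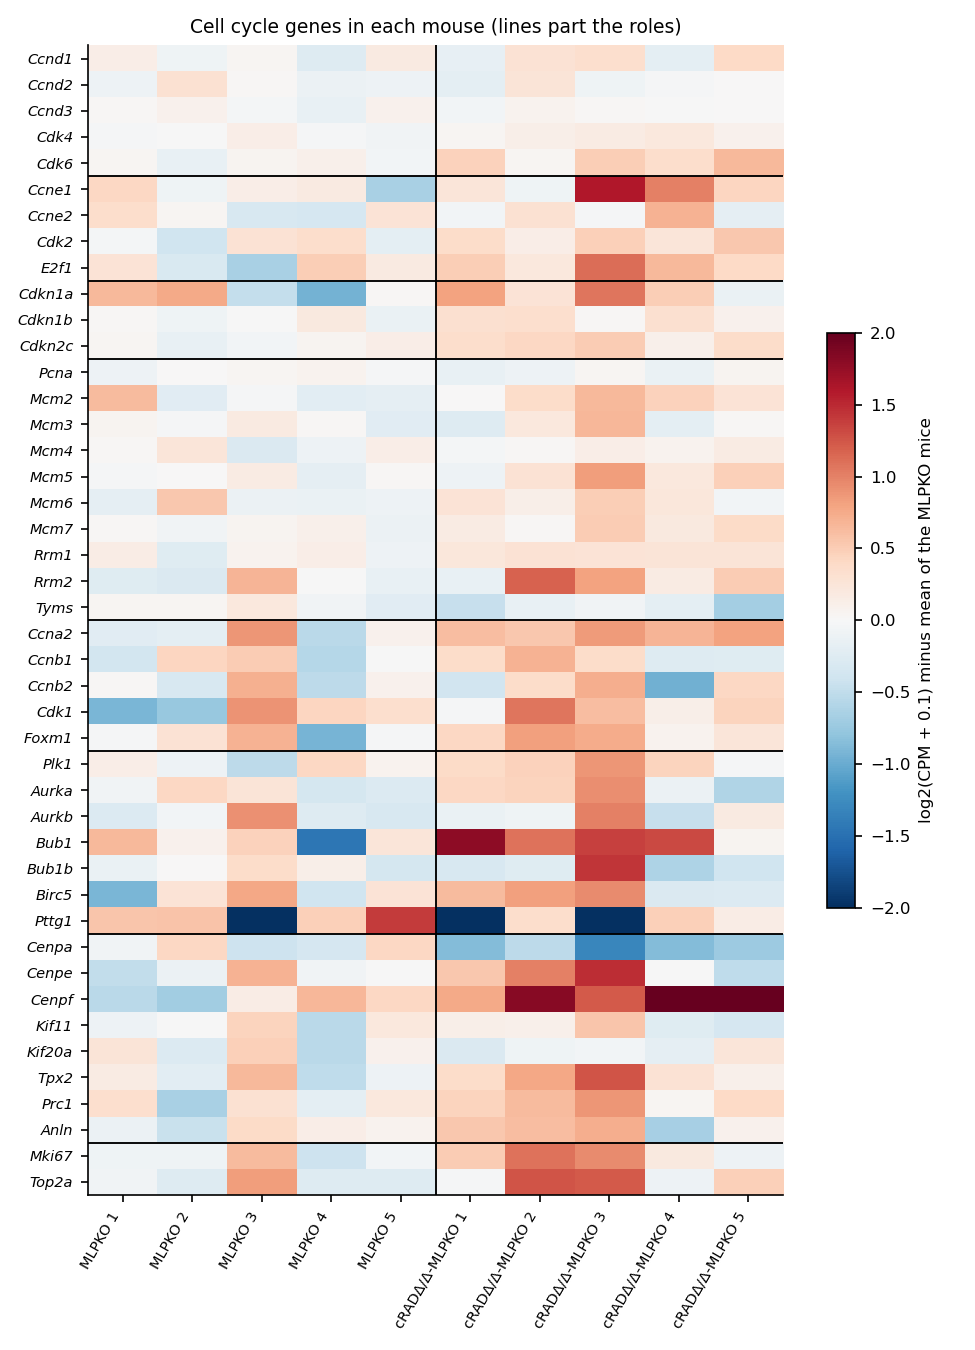
Each row is a cell cycle gene and each column a mouse, coloured by log2(CPM + 0.1) minus the mean of the MLPKO mice, with colours limited to −2 and 2. MLPKO mouse 3 and cRADΔ/Δ-MLPKO mouse 3 are red over much of the mitotic rows, while *Cenpf* is darkest in cRADΔ/Δ-MLPKO mice 4 and 5 and *Cenpa* is blue in all 5 cRADΔ/Δ-MLPKO mice.

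At the entry to the cycle, the fitted differences of the D cyclins and *Cdk4* were small. *Ccnd2* was at 120.1, 160.4, 131, 120.0 and 120.1 CPM in MLPKO and at 113, 155, 122, 128 and 130.5 CPM in cRADΔ/Δ-MLPKO. Mouse 2 was the highest of each group, and the log2 fold change was −0.01 with a 95% interval from −0.23 to 0.21. *Ccnd1* was at 32.2, 27.5, 30.1, 24.5 and 33.1 CPM in MLPKO and at 26.2, 35.7, 37.1, 25.7 and 38.8 CPM in cRADΔ/Δ-MLPKO (log2 fold change 0.15, edgeR adjusted p = 0.551). The groups overlapped, and 48.4% of the exon bases of *Ccnd1* are shared with *LTO1* on the opposite strand. *Ccnd3* had 39.5 ± 2.71 and 39.7 ± 1.15 CPM (SD, n = 5), a log2 fold change of 0.01 with a 95% interval from −0.12 to 0.13. *Cdk4*, with 18.8% of its exon bases shared with *Tspan31* on the opposite strand, was at 25.9, 26.2, 28.8, 25.8 and 25.0 CPM in MLPKO and at 26.9, 28.6, 29.5, 30.5 and 27.8 CPM in cRADΔ/Δ-MLPKO, where MLPKO mouse 3 alone reached into the other group (log2 fold change 0.12, edgeR adjusted p = 0.254).

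*Cdk6*, the other partner of the D cyclins, was at 8.32, 7.35, 8.49, 8.72 and 7.85 CPM in MLPKO mice 1 to 5. It was at 11.2, 8.34, 11.5, 10.4 and 12.8 CPM in cRADΔ/Δ-MLPKO mice 1 to 5. Only cRADΔ/Δ-MLPKO mouse 2 lay within the MLPKO range. The log2 fold change of 0.41 (standard error 0.11, 95% interval 0.17 to 0.65) missed the threshold with edgeR (adjusted p = 0.0654) and passed it with DESeq2 (adjusted p = 0.0159), which called 9.65% of all genes in either direction. Without cRADΔ/Δ-MLPKO mouse 2 it was 0.50 (edgeR adjusted p = 0.0414).

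None of the genes of the G1/S step passed the test. *Ccne1*, an E cyclin, was at 1.02, 0.697, 0.829, 0.853 and 0.441 CPM in MLPKO and at 0.898, 0.697, 2.46, 1.60 and 1.04 CPM in cRADΔ/Δ-MLPKO. The difference came mainly from cRADΔ/Δ-MLPKO mice 3 and 4, and the fitted difference of 0.80 on the log2 scale (edgeR adjusted p = 0.22, standard error 0.36) was 0.47 without mouse 3. *Ccne2* ranged from 1.39 to 2.29 and from 1.56 to 2.94 CPM (log2 fold change 0.17). *Cdk2*, the kinase of the E cyclins, ranged from 4.06 to 6.91 and from 5.90 to 7.85 CPM (log2 fold change 0.33, edgeR adjusted p = 0.237). *E2f1*, the transcription factor of S phase genes, ranged from 0.572 to 1.39 and from 1.13 to 2.19 CPM (log2 fold change 0.59, edgeR adjusted p = 0.236).

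The 3 CDK inhibitors had fitted log2 fold changes above 0, from 0.22 to 0.42, and none passed the test. *Cdkn2c*, which encodes the CDK4 and CDK6 inhibitor p18, was at 7.91, 6.94, 7.44, 8.0 and 8.47 CPM in MLPKO. It was at 9.90, 10.3, 11.1, 8.35 and 10.0 CPM in cRADΔ/Δ-MLPKO. Here cRADΔ/Δ-MLPKO mouse 4 alone lay within the MLPKO range. The log2 fold change was 0.35 (standard error 0.09, 95% interval 0.15 to 0.56), with an edgeR adjusted p of 0.0622 and a DESeq2 adjusted p of 0.0145. *Cdkn1b*, encoding p27, was at 29.6, 27.3, 28.9, 33.3 and 26.6 CPM in MLPKO and at 36.3, 36.6, 29.5, 36.4 and 31.0 CPM in cRADΔ/Δ-MLPKO. MLPKO mice 1 and 4 reached into the other group (log2 fold change 0.22, standard error 0.08, edgeR adjusted p = 0.153). *Cdkn1a*, encoding the p53 target p21, was at 17.2, 18.4, 7.76, 5.60 and 11.1 CPM in MLPKO and at 19.0, 13.2, 23.0, 15.4 and 9.88 CPM in cRADΔ/Δ-MLPKO. It varied widely in both groups (log2 fold change 0.42, 95% interval −0.27 to 1.12, edgeR adjusted p = 0.475).

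In DNA replication and nucleotide supply, 8 of 10 genes had a fitted log2 fold change above 0, with a median of 0.225, and none passed the test. *Rrm1*, the large subunit of ribonucleotide reductase, was at 15.0, 11.5, 14.2, 14.9 and 12.7 CPM in MLPKO and at 16.0, 16.6, 16.4, 16.2 and 16.2 CPM in cRADΔ/Δ-MLPKO. The groups were apart, by a small step, and the cRADΔ/Δ-MLPKO mice were nearly equal (log2 fold change 0.25, standard error 0.08, edgeR adjusted p = 0.0963). The small subunit *Rrm2* ranged from 1.08 to 2.21 and from 1.20 to 3.14 CPM (log2 fold change 0.55, edgeR adjusted p = 0.297), with 43.3% of its exon bases shared with *Gm59512* on the opposite strand. *Tyms*, which makes thymidylate, had the lowest log2 fold change of the role, −0.33, with 1.67 ± 0.193 and 1.33 ± 0.242 CPM (SD, n = 5) and an edgeR adjusted p of 0.324. *Pcna*, the sliding clamp of the polymerases, was at 13.9, 15.1, 15.4, 15.8 and 14.8 CPM in MLPKO and at 13.5, 14.0, 15.4, 13.6 and 15.6 CPM in cRADΔ/Δ-MLPKO. The groups overlapped, and the 95% interval of its log2 fold change of −0.06 ran from −0.21 to 0.09. *AV099323*, on the opposite strand, shares 20.8% of its exon bases.

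The 6 MCM genes encode the subunits of the replicative helicase ring. *Mcm7* was at 7.44, 6.97, 7.62, 7.84 and 6.71 CPM in MLPKO and at 8.20, 7.45, 10.4, 8.35 and 9.52 CPM in cRADΔ/Δ-MLPKO. Only cRADΔ/Δ-MLPKO mouse 2 lay within the MLPKO range (log2 fold change 0.26, standard error 0.10, edgeR adjusted p = 0.164). *Mcm5* was at 2.73, 2.79, 3.12, 2.45 and 2.82 CPM in MLPKO and at 2.57, 3.40, 5.05, 3.21 and 3.89 CPM in cRADΔ/Δ-MLPKO (log2 fold change 0.38, edgeR adjusted p = 0.23). Mouse 3 was the highest mouse of each group, and cRADΔ/Δ-MLPKO mouse 1 lay in the MLPKO range. *Mcm2* was at 7.54, 4.12, 4.74, 4.16 and 4.24 CPM in MLPKO and at 4.85, 6.27, 7.59, 6.64 and 5.84 CPM in cRADΔ/Δ-MLPKO. MLPKO mouse 1 was above all but 1 of the cRADΔ/Δ-MLPKO mice, and the log2 fold change of 0.33 (edgeR adjusted p = 0.329) was 0.53 without it (adjusted p = 0.0907). *Mcm3*, *Mcm4* and *Mcm6* had log2 fold changes of 0.12, 0.06 and 0.20. The sum of the 10 replication genes was 67.0 ± 2.20 CPM in MLPKO and 74.7 ± 6.58 CPM in cRADΔ/Δ-MLPKO (SD, n = 5), with cRADΔ/Δ-MLPKO mouse 3 highest at 85.5 CPM. The groups overlapped, as cRADΔ/Δ-MLPKO mouse 1 had 67.9 CPM and MLPKO mouse 1 had 68.9 CPM.

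Levels can be set beside each other between genes only roughly, once exon length is taken into account. The length used, that of all annotated exons, need not be that of the transcripts present (13355 bases for *Cenpa*). The order of genes therefore depends on the annotation. In RPKM (CPM per kilobase of all annotated exons), *Ccnd2* had the highest value of the 44 genes in MLPKO, 13.8 ± 1.86 (SD, n = 5). *Pttg1* followed with 11.1 ± 7.02, and *Cdk4* with 7.66 ± 0.416. The SD of *Pttg1* covered the means of both neighbours, so its place in the order is uncertain. *Cdkn1b*, *Pcna* and *Ccnd1*, at 6.40 ± 0.578, 6.26 ± 0.288 and 6.17 ± 0.740, differed by less than their spread. *Mki67* was at 0.436 ± 0.129, *Cdk1* at 0.119 ± 0.0682, and *Bub1* was the lowest at 0.0444 ± 0.0273. *Cenpa* had 3.30 ± 0.917 in MLPKO and 1.79 ± 0.342 in cRADΔ/Δ-MLPKO, and its mean was above that of every MCM gene in both groups, although *Mcm7* at 1.57 ± 0.211 and *Mcm4* and *Mcm6*, both at 1.5, were within its spread in cRADΔ/Δ-MLPKO. *Cenpf* moved from 0.183 ± 0.0734 to 0.740 ± 0.466 (SD, n = 5), from below the mean of *Mki67* in MLPKO (0.436) to just above it in cRADΔ/Δ-MLPKO (0.643 ± 0.219), a gap within the spread.

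**Figure D4:**
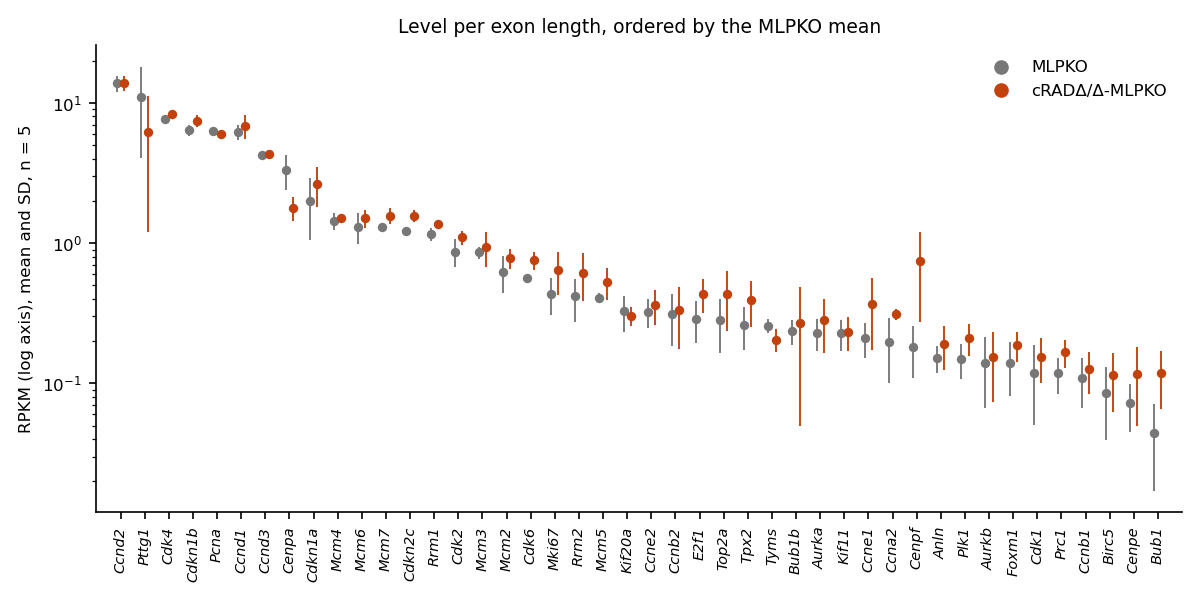
The mean RPKM and SD (n = 5, log axis) of the 44 genes is drawn for MLPKO (grey) and cRADΔ/Δ-MLPKO (orange), in the order of the MLPKO means, from *Ccnd2* at 13.8 to *Bub1* at 0.0444. The means of *Cenpf* lie 4.05-fold apart and its SD bars do not touch.

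Other genes of the cycle were followed in 8 lists of 196 genes, of which 182 were tested, 1 was higher (0.549%, against 0.944% of all genes) and 1 was lower (0.549%, against 1.8%). In the list of mitosis and cytokinesis 38 of 51 log2 fold changes were above 0, with a median of 0.281, and in that of DNA synthesis 22 of 28, with a median of 0.178. The medians of the other lists lay close to that of all genes, from −0.030 for origin licensing to 0.062 for other inhibitors and checkpoint kinases. An unadjusted edgeR p under 0.05 on the higher side was reached by 7.69% of the 182 genes, against 10.1% of all genes. This share was 9.80% in the list of mitosis and cytokinesis and 10.7% in that of DNA synthesis. In either direction it was 14.8% of the 182 genes, against 21.6% of all genes.

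The gene called higher was *Ccni*, an atypical cyclin that does not drive the cycle in the way of the D, E, A and B cyclins. It was at 93.8, 91.7, 102, 102 and 97.2 CPM in MLPKO and at 129.6, 149.7, 119, 152 and 148 CPM in cRADΔ/Δ-MLPKO. The groups were apart (log2 fold change 0.52, standard error 0.07, edgeR adjusted p = 0.0123), and the call held in all 10 fits that left out 1 mouse. *Fzr1*, which encodes the CDH1 activator of the anaphase promoting complex, was called lower. It was at 38.8, 39.2, 39.7, 40.5 and 40.8 CPM in MLPKO and at 32.3, 36.1, 33.7, 35.3 and 35.0 CPM in cRADΔ/Δ-MLPKO. These groups were apart too, by −0.21 on the log2 scale (standard error 0.05, edgeR adjusted p = 0.0489), but the call was lost with any mouse left out (edgeR adjusted p from 0.0553 without MLPKO mouse 4 to 0.112 without cRADΔ/Δ-MLPKO mouse 5).

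In each of the other lists the pair of genes with the smallest p did not pass the edgeR test. DESeq2, which called 9.65% of all genes in either direction, did call some of them. These were *E2f6* (DESeq2 adjusted p = 0.00408), *E2f3* (0.0119), *Nrg1* (0.00105), *Fbxw7* (0.0119) and *Dut* (0.0233). The other genes of these pairs were not called by DESeq2 either. Below, an adjusted p is that of edgeR unless DESeq2 is named. The E2F factors *E2f6* and *E2f3* had log2 fold changes of −0.18 and −0.42 (edgeR adjusted p = 0.0624 for both), and in both the cRADΔ/Δ-MLPKO mice were below all MLPKO mice. Without MLPKO mouse 4, *E2f3* passed the test (edgeR adjusted p = 0.0327), and so did *Dut* (0.0442), *Fbxw7* (0.0477) and *Nrg1* (0.021), which passed without MLPKO mouse 3 as well (0.0384). *Dut* and *Lig1*, which clear dUTP and join DNA strands, had 0.42 and 0.39 (adjusted p = 0.0765 and 0.154). For the licensing genes *Orc2* and *Cdt1* the values were −0.21 and 0.42 (adjusted p = 0.26 and 0.352), and for the checkpoint kinases *Atr* and *Chek1* −0.24 and 0.73 (adjusted p = 0.157 and 0.3). The p53 targets *Eda2r* and *Btg2* had 0.41 and −0.75 (adjusted p = 0.111 and 0.153). Besides the called genes, *Cdc25b*, the phosphatase that activates CDK1, had 0.50 (edgeR adjusted p = 0.127, DESeq2 adjusted p = 0.0638). The cyclin *Ccng2* had 0.28 (edgeR adjusted p = 0.0835, DESeq2 adjusted p = 0.0395). Among upstream signals, *Nrg1*, the growth factor neuregulin that acts on cardiomyocytes through ERBB receptors, was at 2.75, 3.17, 0.750, 0.640 and 4.04 CPM in MLPKO and at 0.539, 0.610, 0.219, 0.423 and 0.769 CPM in cRADΔ/Δ-MLPKO. MLPKO mice 3 and 4 were near the cRADΔ/Δ-MLPKO mice, and the log2 fold change was −2.13 (standard error 0.53, edgeR adjusted p = 0.0551). *Fbxw7*, which marks cyclin E for degradation, had one of 0.28 (adjusted p = 0.0574).

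**Figure D5:**
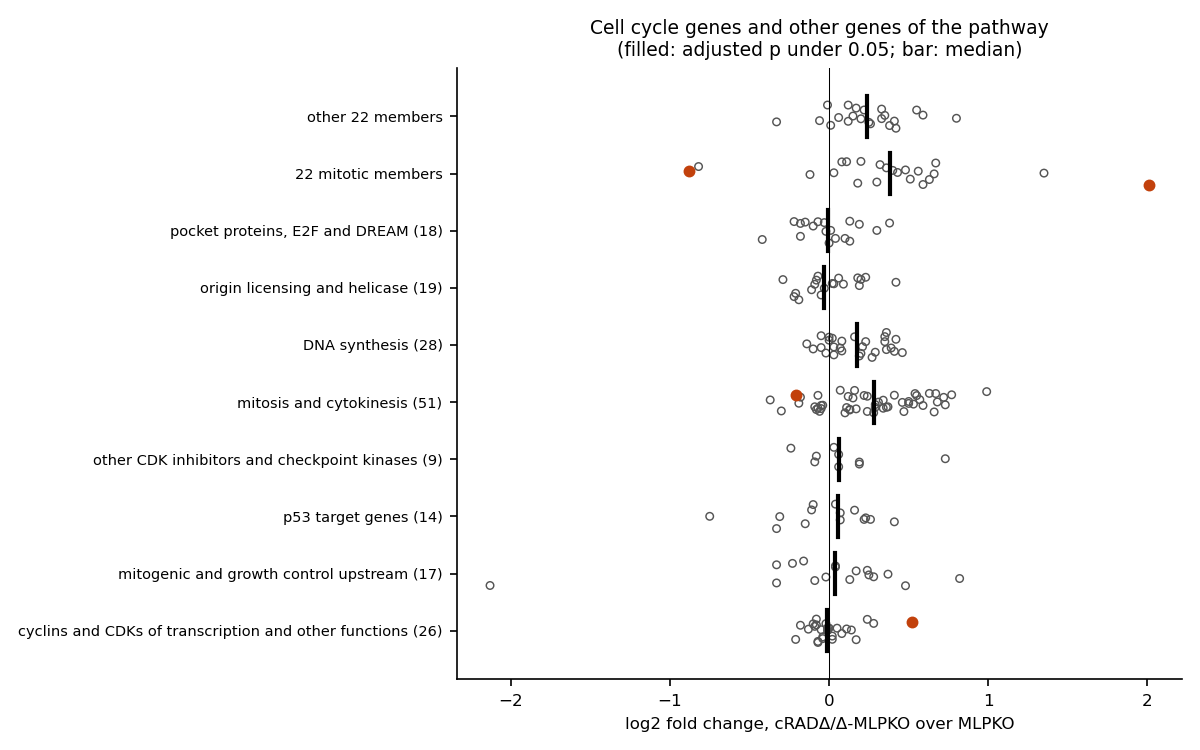
Each point is the log2 fold change of 1 gene (x axis), by list, for the 44 cell cycle genes and the 8 lists of other genes, with the number of genes tested in brackets. Bars are medians (0.382 for the 22 mitotic members and 0.281 for the list of mitosis and cytokinesis), and filled points are *Cenpf*, *Cenpa*, *Ccni* and *Fzr1*.

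Markers of the cells of the ventricle are given beside these results, and few of them passed the test. Over all genes, 0.944% were called higher and 1.8% lower, and 10.1% had an unadjusted p under 0.05 on the higher and 11.5% on the lower side. All 7 macrophage markers had an unadjusted p under 0.05 on the higher side. Their summed level was 94.1 to 140.0 CPM in MLPKO and 120.1 to 215 CPM in cRADΔ/Δ-MLPKO. None was called by edgeR, and DESeq2 called 3 of 7 higher. All 6 endothelial markers had an unadjusted p under 0.05 on the higher side too. Their sums did not overlap, from 673 to 758 CPM and from 785 to 906 CPM. None was called by edgeR, and DESeq2 called 2 of 6 higher. Over all genes, DESeq2 called 3.81% higher and 5.84% lower. Without MLPKO mouse 4, the macrophage markers *Adgre1*, *Csf1r*, *Mrc1* and *Cd163* passed the test (edgeR adjusted p = 0.0415, 0.048, 0.0495 and 0.0389), and *Adgre1* did so without MLPKO mouse 2 (0.0489) or cRADΔ/Δ-MLPKO mouse 2 (0.0468). Of the pericyte and smooth muscle markers, *Rgs5* and *Acta2* were called higher (2 of 5, and 2 of 5 with DESeq2). The sums of this list, 488 to 609 and 653 to 874 CPM, did not overlap. Of the fibroblast markers *Dpt* was called higher (1 of 6, and 1 of 6 with DESeq2), with sums of 892 to 1297 and 802 to 1368 CPM. The call of *Dpt* held with any mouse left out, that of *Rgs5* only without MLPKO mouse 2 or 4 (edgeR adjusted p = 0.0453 and 0.0136, against at most 0.0765 without another), and that of *Acta2* only without MLPKO mouse 2, 3 or 4 or cRADΔ/Δ-MLPKO mouse 5 (at most 0.048, against at most 0.0963). The cardiomyocyte marker *Tnnt2* was called lower (1 of 7, with 4 of 7 at an unadjusted p under 0.05 on the lower side and 3 of 7 called lower by DESeq2), a call lost without cRADΔ/Δ-MLPKO mouse 5 (edgeR adjusted p = 0.059), and *Actn2* passed without MLPKO mouse 4 (0.0244). B cell markers were highest in the same mice as the 19 mitotic genes, 4.72 CPM in MLPKO mouse 3 and 6.86 CPM in cRADΔ/Δ-MLPKO mouse 3, against 1.52 to 2.84 and 1.79 to 3.70 CPM in the others, and none of the 4 was called. The sum of the endothelial markers was also highest in mouse 3 of each group, and the macrophage sum in cRADΔ/Δ-MLPKO mouse 3. In MLPKO the macrophage sum was highest in mouse 4 (140.0 CPM, against 104 CPM in mouse 3), which had the lowest sum of the 19 mitotic genes. The pericyte and smooth muscle sum was highest in cRADΔ/Δ-MLPKO mouse 3 but lowest in MLPKO mouse 3 (488 CPM). The skeletal muscle sum was highest in mouse 3 of MLPKO only. Sums of the fibroblast, cardiomyocyte, T cell, neutrophil, erythroid, atrial and Schwann cell markers were not highest in mouse 3 of either group. None of the 5 T cell markers passed the filter, with sums of 0.320 to 0.951 and 0.658 to 1.11 CPM. Neutrophil markers summed to 1.28 to 2.06 and 1.39 to 4.48 CPM, and no neutrophil, erythroid, atrial, skeletal muscle or Schwann cell marker was called. The skeletal muscle marker *Myh4* was the only marker at 0 in every mouse. The part of these cells in the levels of the cell cycle genes was not tested.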

How the data were processed

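RNA of the apical ventricle with a RIN above 9 was enriched for polyadenylated transcripts. Per the labels, the authors aligned reads to GRCm39 with STAR, checked them with FastQC and deposited raw counts per gene from featureCounts; versions and settings for strand and read pairs are not given in the sources used here. Of counts from 1 to 20, 73.7% to 80.3% were even numbers, against 51.0% to 56.5% above 1000, so low counts may stand for fewer fragments. Of 60676 genes, 3491 had no value. Positions and exon lengths came from GENCODE M39. By the filter that the authors describe, a gene was kept if over 10 counts were found in 6 or more mice. Gm and Rik genes were left out too. The paper gives fewer genes for its ranked list, so its set need not be the same as the 13452 genes kept here. The main test, tested on simulated data first, was glmQLFTest (edgeR 4.0.16, R 4.3.3) after TMM scaling, with Benjamini-Hochberg adjustment over these genes. DESeq2 1.42.0, limma-voom (limma 3.58.1), other scalings and filters, and fits without each mouse were alternatives. The study itself compared the genotypes with DESeq2. CPM used TMM-scaled library sizes. Intervals are those of the fit, and the depth of 33457406 to 49965101 counts (median 43738141) limits genes of few counts. Tables and plots were made in Python 3.11.15. Promoters came from RefSeq windows of GRCm38.p6, given for 35 of the 44 members.

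The members, roles and lists were chosen with earlier results of these data known. Named were all 44 members, with single-mouse values for those with an unadjusted p under 0.05, no overlap or use as a standard readout, the called genes of each other list or its pair with the smallest p, the targeted genes and called markers. Mice are separate animals, 5 per group.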

Additional observations from a re-analysis of the deposited data

Results flagged for a closer look

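In each group of 5 mice, a mouse was marked when its gap to the nearest other mouse exceeded 0.71 of the group's range (Dixon's test). This was met in 8 of the 88 groups (44 genes in 2 genotypes). For independent normal values chance gives about 1 in 20. Low CPM values of genes that can be high in the same mouse need not behave so, and no excess over chance is claimed.

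MLPKO mouse 3 was marked 4 times, for genes of proliferating cells. It had 6.75 CPM of *Mki67* against 3.25 to 4.19 CPM in the other MLPKO mice. It had 4.46 CPM of *Top2a* against 2.03 to 2.31 CPM, 2.21 CPM of *Rrm2* against 1.08 to 1.33 CPM, and 0.967 CPM of *Aurkb* against 0.353 to 0.444 CPM. In cRADΔ/Δ-MLPKO, mouse 3 had 3.06 CPM of *Bub1b* against 0.668 to 0.893 CPM. MLPKO mouse 2 had 160.4 CPM of *Ccnd2* against 120.0 to 131 CPM and 10.2 CPM of *Mcm6* against 6.15 to 6.46 CPM. MLPKO mouse 1 had 7.54 CPM of *Mcm2* against 4.12 to 4.74 CPM.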

How the results depend on the processing

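The median of the 44 genes was above 0 (0.235 to 0.361) with RLE and upper quartile scaling, without a filter and without each mouse, the settings for which it was computed, while calls of single genes depended on the tool and on single mice. DESeq2 called 1298 genes (9.65% of all tested) against 369 with edgeR (2.74%). It called 4 of the 44 members against 2, 9 of the 182 pathway genes tested against 2 and 11 cell type markers against 4. With both tools the share of pathway genes called was below that of all genes, and with DESeq2 the share of members was near it. With limma-voom and with robust dispersion 1 member was called, as *Cenpf* was lost. The median of all genes was 0.035 with upper quartile scaling and 0.017 without a filter, against 0.011. The log2 ratio of the mitotic sums was −0.251, but 0.333 for the mean log2 CPM and 0.42 with *Cenpa*, *Cenpf* and *Pttg1* left out, an alternative added after the values were seen. Signs turned for *Ccnd2* with upper quartile scaling (0.02) and, with limma-voom, for *Ccnb2* (−0.03), *Bub1b* (−0.08) and *Kif11* (−0.01). The causes were not tested.

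With 1 mouse left out, edgeR called 47 genes (without MLPKO mouse 5) to 826 (without MLPKO mouse 4), 0 to 2 members, 1 to 5 pathway genes and 2 to 9 cell type markers. The members above 0 numbered 34 to 40, and the median of all genes was 0.009 to 0.017. Signs of small values turned, with ranges of −0.08 to 0.08 for *Ccnd2*, −0.03 to 0.03 for *Ccnd3*, −0.04 to 0.20 for *Mcm3*, −0.12 to 0.35 for *Ccnb2*, −0.24 to 0.51 for *Aurkb*, −0.45 to 0.35 for *Bub1b*, −0.12 to 0.17 for *Kif11* and −0.24 to 0.03 for *Kif20a*.

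The mouse numbers belong to different animals, and deviations of mice with the same number correlated between −0.0442 and 0.1523. With the number as a replicate block, 281 genes and 2 members were called, with 2 pathway genes and 3 cell type markers, 37 members were above 0, and the sign of *Bub1b* turned (−0.02). Among the cRADΔ/Δ-MLPKO mice, MLPKO mice 2, 4 and 5 correlated best with one of another number. For MLPKO mice 1 and 3 the same number was highest by a small margin (0.0252 against 0.024 and 0.0972 against 0.0913). Depth limits the genes with few counts, such as *Bub1*, *Birc5*, *Ccnb1* and *Cdk1*, for which a missed threshold does not show equal levels.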
